A study of Homo sapiens with 4 samples.

Results

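The regions described here are the TEAD4 peaks around 7 integrin genes that epithelial cells use for adhesion: ITGB1, ITGB4, ITGB5, ITGA2, ITGA3, ITGA6 and ITGAV. TEAD4 binding was mapped by chromatin immunoprecipitation and sequencing in MKN28 and SNU216, a pair of human gastric cancer cell lines, and the authors deposited 1 list of peaks per line. A peak was counted for a gene when its midpoint lay within 100 kb of the gene start on hg19. This took 99 of the 51017 peaks of both lists, 66 of 39477 in MKN28 and 33 of 11540 in SNU216. Each group is 1 TEAD4 library of an untreated line, as far as the labels say, for which the authors used 1 input library of the same line, sonicated DNA taken without antibody, as the control. Both are established cultures labelled as gastric cancer cells, with no perturbation of TEAD4, so the lists give binding at one state per line. MKN28 stands in public registers of misidentified lines as a derivative of another gastric cancer line, which the labels do not mention and which was not checked here. With 1 library per line no difference has a replicate check and no test was made. Sequencing depth is unknown, since the lists hold no read counts, and a site missing from a list was only below the authors' threshold there. RNA was not part of the data, so neither the cell type nor the activity of the integrin genes could be checked against expression.

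Integrins are cell surface receptors made of 1 α and 1 β subunit that tie the cytoskeleton to the extracellular matrix. In epithelia, the β1 subunit pairs with α2, α3 and α6 to bind collagen and laminin in the basement membrane, α6 with β4 builds hemidesmosomes, and αV with β5 binds vitronectin. TEAD factors are the DNA-binding partners of YAP and TAZ, the co-activators held in check by the Hippo kinases, which respond to adhesion and mechanical tension. TEAD factors bind mostly at enhancers away from gene starts, through a recognition element with the core GGAATG.

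Of the gene starts themselves, 1 lay inside a peak. It was that of ITGB1, in SNU216 only, where the peak ran over chr10:33247055-33247859 on hg19 and held the gene start at 33247293. The 250 bases before the ITGB1 start in RefSeq are shown here because they lie before the first of the gene's 2 RefSeq starts and carry the TEAD core, which is in capitals. The window before the other ITGB1 start did not hold the core. They lie on the minus strand at chr10:32958231-32958480 of GRCh38.p14, a newer build than that of the peaks.
ITGB1, first RefSeq start: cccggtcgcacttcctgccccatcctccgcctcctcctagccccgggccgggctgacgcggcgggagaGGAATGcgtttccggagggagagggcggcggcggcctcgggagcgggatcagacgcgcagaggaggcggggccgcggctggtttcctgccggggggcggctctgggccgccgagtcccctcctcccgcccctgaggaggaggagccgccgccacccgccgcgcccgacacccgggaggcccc
GGAATG, searched on both strands (as CATTCC on the other), occurred once, from base 182 to base 177 before the RefSeq start. Of all 35116 RefSeq promoter windows of that length, 11.9% held it, so its presence is a description of these letters and not a mapped site. Promoter entries were found for 5 of the 7 genes (10 starts in all), and the other 9 windows did not hold the core. Positions were not converted between builds, so where the motif falls within the peak was not determined.

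The integrin windows were rich in TEAD4 peaks in both lines. They held 47.1 peaks per Mb in MKN28, against 12.99 over chromosomes 1 to 22 and X, and 23.6 per Mb in SNU216, against 3.79. The higher MKN28 number goes with its longer list: of the 11540 highest-scoring MKN28 peaks, as many as SNU216 has, 18 lay in the windows (12.9 per Mb, against 3.798), fewer than the 33 of SNU216. In MKN28 the counts were 12 at ITGB4, 12 at ITGA3, 11 at ITGA6, 10 at ITGB1, 10 at ITGB5, 7 at ITGAV and 4 at ITGA2. In SNU216 they were 9 at ITGB1, 9 at ITGA3, 6 at ITGB4, 5 at ITGB5, 3 at ITGA2, 1 at ITGAV and 0 at ITGA6. The genes thus had different orders in the 2 full lists, with ITGA6 near the top in MKN28 and last in SNU216. Among the 11540 highest-scoring MKN28 peaks the counts were 5 at ITGB4, 5 at ITGB5, 3 at ITGA3 and 2 at ITGA2. ITGB1, ITGA6 and ITGAV had 1 each, so ITGA6 was among the lowest there too. In the full MKN28 list, at least 10 peaks lay in 5 of the 7 windows. Of the 15192 windows of 200 kb tiled over the genome, 4.07% held that many. At least 5 SNU216 peaks lay in 4 of the 7, against 2.78% of the tiled windows, and at least 9 in 2 of the 7, against 0.244%. Each of these limits equals the lowest count among the genes that reach it, so the percentages describe those counts and are no test. The tiled windows include stretches without genes, so they are a background for the genome and not for gene starts.

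**Figure D1:**
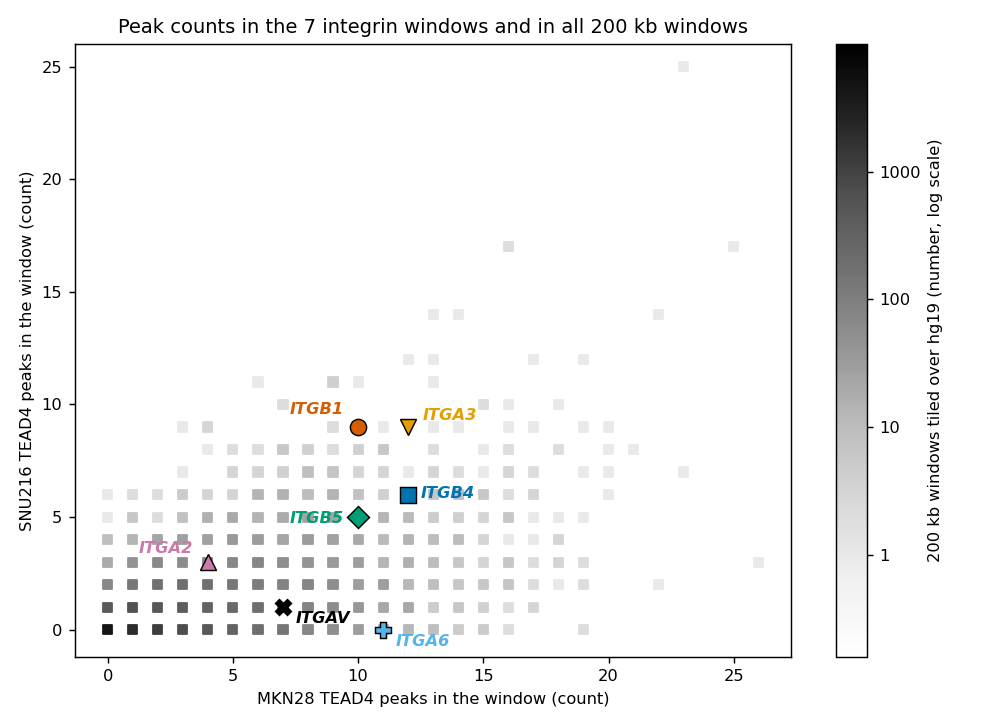
Number of TEAD4 peaks per 200 kb window in MKN28 (horizontal axis) and SNU216 (vertical axis). Grey squares are all windows tiled over hg19, darker where more windows share the same pair of counts, and coloured symbols are the 7 integrin windows: ITGB1 (10 and 9) and ITGA3 (12 and 9) sit high on both axes, while ITGA6 (11 and 0) sits on the horizontal axis.

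Scores were read within each list, because the caller's score rises with depth. Of the 66 MKN28 integrin peaks, 41 scored 100 or more (62.1%, exact 95% Clopper-Pearson interval 49.3 to 73.8), beside 49.9% of the whole list. In SNU216, 18 of 33 did (54.5%, 36.4 to 71.9), beside 42.2%. Both intervals held the share of their own list. The median score was 124 in MKN28, beside 99.8 for all its peaks, and 104 in SNU216, beside 84.7. In the highest-scoring 10% of its own list were 5 of the 66 MKN28 peaks and 8 of the 33 SNU216 peaks. The 8 in SNU216 belonged to ITGB1 (3), ITGB5 (3), ITGB4 (1) and ITGA3 (1). The β subunit genes thus held 7 of these 8, and 20 of all 33 SNU216 integrin peaks. Intervals cover counting error only, and peaks of 1 window are not independent of each other.

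Sites called in both lines made up shares that depend on the length of the lists. Of the SNU216 integrin peaks, 19 of 33 overlapped an MKN28 peak by at least 1 bp (57.6%, 39.2 to 74.5), beside 59.3% of the whole SNU216 list. Of the MKN28 integrin peaks, 19 of 66 overlapped an SNU216 peak (28.8%, 18.3 to 41.3), beside 17.1% of the whole MKN28 list. The MKN28 interval lay above the share of its list, and the SNU216 interval held it. Peaks of 1 window are not independent, so this is a description and no test. SNU216 peaks were denser in the windows than over the chromosomes, at 23.6 against 3.79 per Mb, and the part of this in the MKN28 share was not tested. With the MKN28 list limited to equal length, the order of the 2 shares reversed, to 39.4% of the SNU216 and 66.7% of the 18 MKN28 integrin peaks left. Whole-list shares at that length are not given, so these 2 values do not compare integrin peaks with all peaks. The overlaps formed 20 pairs of peaks, since 1 wide SNU216 peak at ITGB1 covered 2 MKN28 peaks and 1 wide MKN28 peak at ITGB5 covered 2 SNU216 peaks. Partner midpoints lay 2.5 to 650 bp apart, with a median of 103 bp, beside 55.5 bp over all pairs of the lists.

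**Figure D2:**
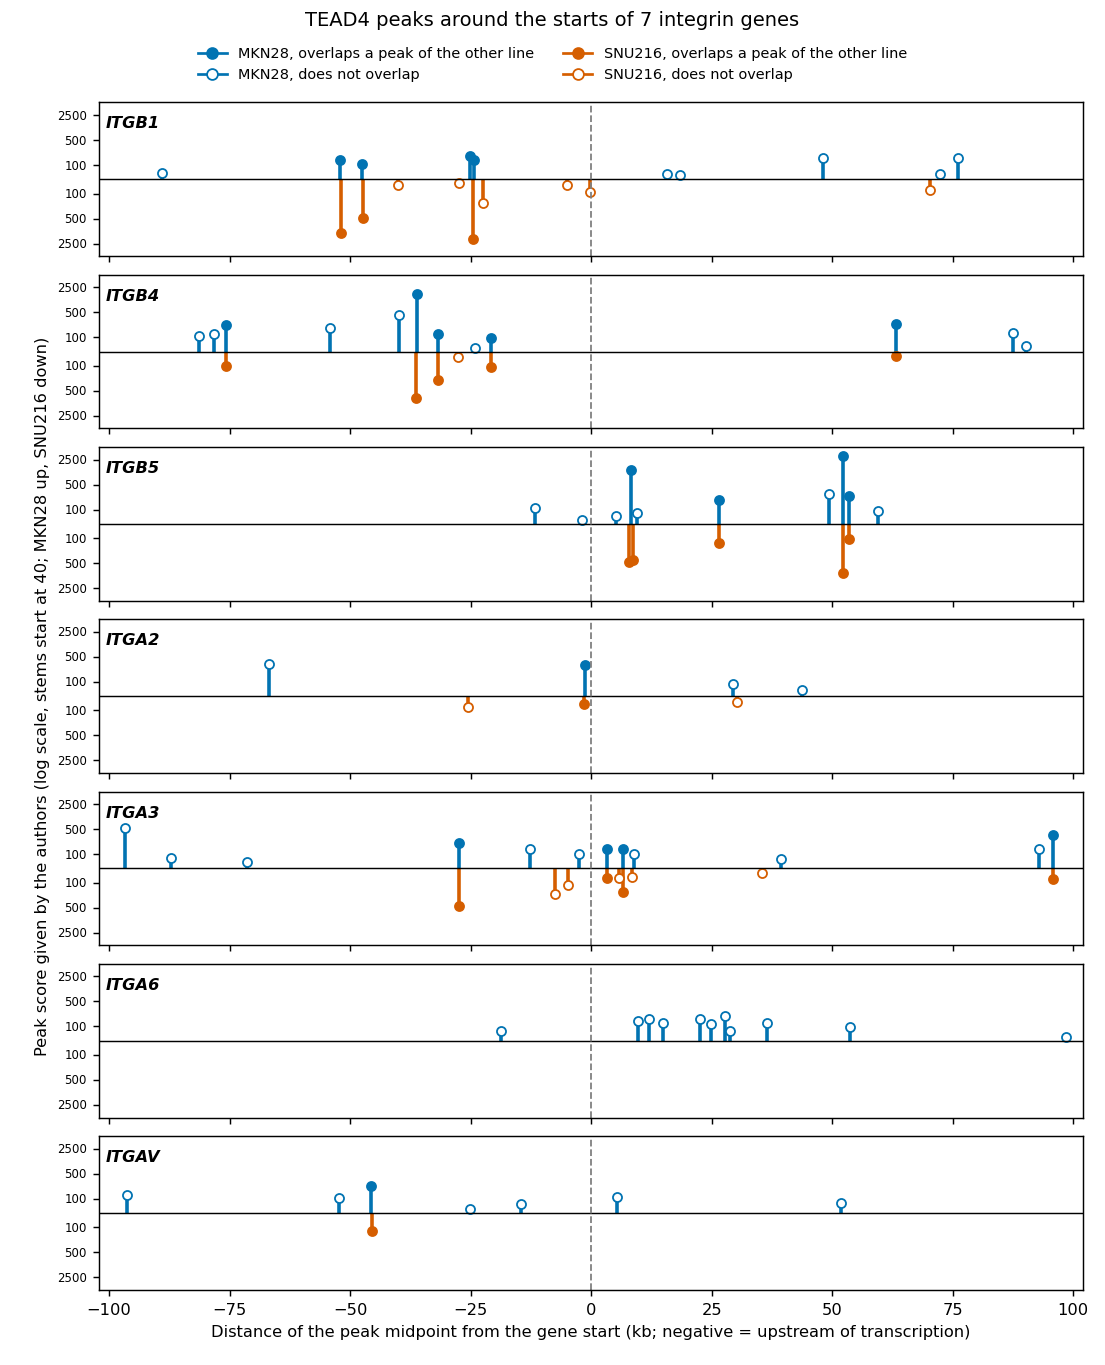
TEAD4 peaks within 100 kb of each integrin gene start, by distance from the start in kb (negative is upstream of transcription) and by the authors' score on a log axis, MKN28 upward in blue and SNU216 downward in orange. Filled circles overlap a peak of the other line: ITGB1 has its longest stems in SNU216 (scores are not scaled between the lists), ITGB5 has tall stems at the same 2 places in both lines, and ITGA6 has stems in MKN28 only.

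ITGB1 encodes the β1 subunit, the partner of most epithelial α subunits, and lies on chromosome 10 in band 10p11.22. Its common sites were upstream, and they stood near the top of the SNU216 list and in the middle of the MKN28 list. The SNU216 peak at chr10:33270682-33273013, centred 24.6 kb upstream of the start, scored 1884 and ranked 10 of 11540. It covered MKN28 peaks that scored 139 and 174, which ranked 14258 and 11325 of 39477. Another SNU216 peak, at chr10:33298447-33299909 and 51.9 kb upstream, scored 1291 (rank 31), and its MKN28 partner at chr10:33299025-33299769 scored 140. A further pair 47.4 kb upstream scored 485 in SNU216 (chr10:33294193-33295231) and 105 in MKN28 (chr10:33294441-33295019). All of these common sites lay on the side of the neighbouring gene NRP1, and each placed in the highest 4.32% of the SNU216 list or above. In the MKN28 list they placed between the highest 28.7% and the highest 47.5%.

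The other ITGB1 peaks were weaker in SNU216, while in MKN28 some were not. The SNU216 peak over the gene start scored 89.2, and the 6 SNU216 peaks without an MKN28 partner scored 50.2 to 184. The MKN28 peak nearest the start was 15.7 kb downstream (chr10:33231354-33231758) and scored 56.4, and the highest MKN28 score in the window was the 174 named above. MKN28 peaks without a partner scored 53.0 to 159, beside 105 to 174 for those with one.

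SNU216 peaks at ITGB1 were also wide. Width was set against score, as the ratio of a peak's width to the median of its score group, 1 of 50 groups by score rank in its own list. The top group is wide in score: the SNU216 peaks scoring 1884 at ITGB1 and 786 at ITGB4 shared it. For the strongest peaks the ratio is therefore only loosely matched for score. The 9 SNU216 peaks came out at 1.47 to 3.49, with a median of 1.96. A ratio of at least 1.4, a limit set after these values were seen, was reached by 9 of 9 there and by 1 of the 24 other SNU216 integrin peaks, beside 8.58% of all SNU216 peaks. The 10 MKN28 peaks at ITGB1 lay between 0.861 and 1.28. How often the lines differ in this way at other loci was not counted. In MKN28 the limit was reached by 3 of the 66 integrin peaks, beside 9.26% of all MKN28 peaks. Outside the window, from 100 to 500 kb from the start, the 9 SNU216 peaks had a median ratio of 1.14 (0.815 to 2.60), and 3 of them reached 1.4. The part of the width in the ITGB1 scores was not tested.

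**Figure D3:**
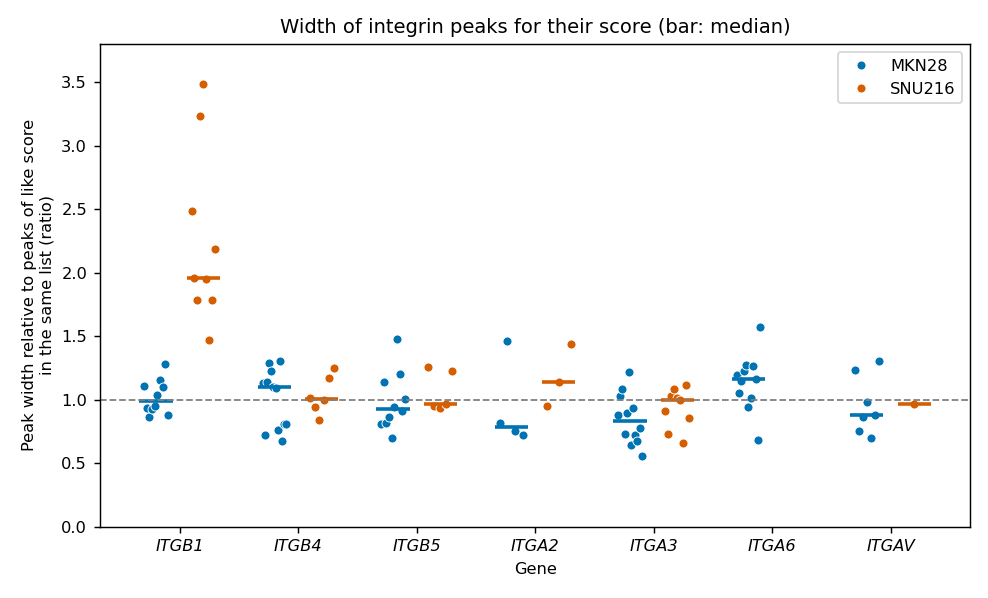
Ratio of each integrin peak's width to the median of its score group (50 groups by score rank in its own list), by gene and line, with bars at the medians and a dashed line at 1. The 9 SNU216 peaks at ITGB1 lie between 1.47 and 3.49, and the 10 MKN28 peaks of that gene between 0.861 and 1.28.

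ITGB4, on chromosome 17 in band 17q25.1, encodes the β4 subunit that joins α6 in hemidesmosomes. Its peaks were mostly upstream in both lines, with 1 strong common site among them. The MKN28 peak at chr17:73680966-73681896, 36.1 kb upstream, scored 1662 and ranked 190. The SNU216 peak at the same place, chr17:73680960-73681592, scored 786 and ranked 167. Both were the highest of the window in their list. This site lay on the side of the neighbouring gene SAP30BP, and peaks were assigned to ITGB4 by distance alone.

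Around that site, pairs lay 31.8 kb upstream in MKN28 (score 121, SNU216 249), 20.8 kb upstream (97.0 and 109) and 75.8 kb upstream (219 and 101). A pair 63.3 kb downstream scored 240 in MKN28 (chr17:73780561-73780979) and 54.7 in SNU216. The pair 20.8 kb upstream was the closest to the start in either line, at chr17:73696336-73697012 in MKN28 and chr17:73696446-73696979 in SNU216. From there to the downstream pair neither list had a peak, so the start of ITGB4 lay in a stretch without called TEAD4 binding. Of the 6 SNU216 peaks, 5 had an MKN28 partner, and the exception scored 55.9. A strong MKN28 peak without a partner (chr17:73677281-73678128, score 423) lay 39.8 kb upstream, beside the main site.

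ITGB5, on chromosome 3 in band 3q21.2, encodes the β5 subunit of a vitronectin receptor. It held the highest-scoring MKN28 peak of all 7 genes, while the highest in SNU216 was at ITGB1, and every one of its 5 SNU216 peaks overlapped an MKN28 peak. The MKN28 peak at chr3:124553485-124554176, 52.3 kb downstream of the start, scored 3157 and ranked 2 of 39477. Scores pile up near that value in the MKN28 list, so the rank is not an order of strength among the top peaks. The SNU216 peak at chr3:124553511-124554145 scored 938 and ranked 108, and the 2 midpoints lay 2.5 bp apart. This was the closest match among the 20 pairs.

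A broad second site lay 8.21 kb downstream of the ITGB5 start. The MKN28 peak there, chr3:124597310-124598558, was 1249 bp wide and scored 1251 (rank 465). In SNU216 the same stretch was called as 2 neighbouring peaks, chr3:124597251-124597821 with a score of 402 and chr3:124597838-124598552 with 457. The latter was the SNU216 peak nearest the start. Pairs 53.4 kb and 26.5 kb downstream scored 241 and 181 in MKN28 and 104 and 138 in SNU216. The MKN28 peak nearest the start, 1.95 kb upstream (chr3:124607914-124608277), scored 50.05, close to the lowest score of the list. RefSeq gives ITGB5 3 starts, of which the rule used 1, so a distance from the start here is a distance from that one.

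ITGA2, on chromosome 5 in band 5q11.2, encodes the α2 subunit of the epithelial collagen receptor. It had the fewest MKN28 peaks of the 7 genes, and its 1 common site was just upstream of the start. The MKN28 peak at chr5:52283304-52284255, 1.38 kb upstream, scored 288, and the SNU216 peak at chr5:52283377-52283781, 1.58 kb upstream, scored 66.4. No other common site of the 7 genes lay as close to a start. In their own lists these scores fell in the highest 16.5% for MKN28 and the highest 67.1% for SNU216. The strongest MKN28 peak of the window (chr5:52218150-52218694, score 326) was 66.7 kb upstream and the strongest SNU216 peak (chr5:52259493-52259873, score 78.3) 25.5 kb upstream, and neither had a partner.

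ITGA3, on chromosome 17 in band 17q21.33, encodes the α3 subunit of a laminin receptor. It had many peaks of modest score near the start. Within 10 kb of the start lay 4 MKN28 peaks, which scored 98.9 to 140, and 6 SNU216 peaks, which scored 67.9 to 205. No other of the 7 genes had as many SNU216 peaks that close. Pairs lay 3.29 kb downstream (chr17:48136448-48136803, score 137 in MKN28 and 72.0 in SNU216) and 6.69 kb downstream (chr17:48139763-48140304, score 140 and 188). The first of these held the SNU216 peak nearest the start (chr17:48136492-48136914), while the nearest MKN28 peak, 2.57 kb upstream at chr17:48130459-48131089 with a score of 99.7, had no partner.

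The strongest SNU216 peak at ITGA3, chr17:48105585-48106113, lay 27.5 kb upstream and scored 436 (rank 610). Its MKN28 partner, chr17:48105779-48106217, scored 205 (rank 9568). The order was the opposite at the far end of the window, where a pair 95.8 kb downstream scored 341 in MKN28 and 78.2 in SNU216. The strongest MKN28 peak (chr17:48036358-48037010, score 529) lay 96.7 kb upstream, at the edge of the window on the side of the neighbouring gene DLX3, and had no partner. With 12 MKN28 and 9 SNU216 peaks, ITGA3 joined ITGB1 among windows that were full in both lists. Of the 619 tiled windows with at least 10 MKN28 peaks, 3.88% held at least 9 SNU216 peaks, limits that equal the lowest counts of these genes.

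ITGA6, on chromosome 2 in band 2q31.1, encodes the α6 subunit, which pairs with β4 in hemidesmosomes and with β1 elsewhere. At the authors' threshold, peaks were called there in MKN28 only. Its 11 MKN28 peaks scored 51.1 to 203, with a median of 125, and 10 of the 11 lay downstream of the start. Of these, 8 lay between 9.70 and 36.5 kb downstream, and the row of middling peaks held no site in the highest 10% of the list. The strongest, chr2:173319620-173320230, scored 203 at 27.8 kb downstream. The one nearest the start, chr2:173301472-173302082, scored 142.

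SNU216 had 0 peaks in the ITGA6 window, and its nearest peak lay 174 kb from the start. Of the 619 tiled windows with at least 10 MKN28 peaks, 13.1% had 0 SNU216 peaks, so such windows were not rare. Within 500 kb of the ITGA6 start SNU216 had 11 peaks and MKN28 34. The α6 gene and its hemidesmosome partner ITGB4 thus differed in SNU216, with 0 and 6 peaks. In the full MKN28 list their counts were alike, at 11 and 12, while their highest scores were 203 and 1662. With the MKN28 list limited to equal length, ITGA6 had 1 peak and ITGB4 5, so the likeness in counts did not hold there.

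ITGAV, on chromosome 2 in band 2q32.1, encodes the αV subunit, the partner of β5. It had 7 MKN28 peaks and 1 SNU216 peak. The SNU216 peak, chr2:187409126-187409569, lay 45.4 kb upstream and scored 126. Its MKN28 partner, chr2:187408933-187409468, was the strongest MKN28 peak of the window at 234. The other 6 MKN28 peaks scored 52.2 to 124, and the one nearest the start was 5.35 kb downstream (chr2:187459908-187460372, score 109). At most 1 SNU216 peak was found in 41.7% of the 1735 tiled windows with at least 7 MKN28 peaks, so the low SNU216 count at ITGAV was common for such a window.

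The genes on chromosome 2 stood apart from the others in the balance of the lines. ITGA6 and ITGAV had 18 MKN28 peaks and 1 SNU216 peak together, and the other 5 genes had 48 and 32. Over all of chromosome 2 the MKN28 list was 4.797 times as long as the SNU216 list, beside 3.42 for the whole lists, and on chromosome 10 it was 3.25 times as long. At ITGB1 the ratio was 1.11, at ITGA2 and ITGA3 1.33, at ITGB4 and ITGB5 2.0 and at ITGAV 7.0. These ratios depend on the window. Within 50 kb, ITGB1 had 6 MKN28 and 7 SNU216 peaks and ITGA3 had 7 and 8, so the order turned, ITGA2 had 3 and 3, and ITGB4 had 5 and 4. ITGB5 had 7 and 3, ITGAV 4 and 1 and ITGA6 9 and 0. The part of chromosome-wide peak numbers in the differences between genes was not tested.

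The place of a common site depends on how it is counted, because the lists differ in length. By the share of its own list that scores at least as high, 8 of the 20 pairs were placed higher in SNU216 and 12 in MKN28, and 33.1% of all 6876 pairs were placed higher in SNU216. By rank the count turned to 14 in SNU216 and 6 in MKN28, beside 75.1% of all pairs. Because the SNU216 list is shorter, a pair higher there by share is always higher there by rank too. Likewise, a pair higher in MKN28 by rank is always higher there by share. Agreement both ways is therefore no separate check. All 4 pairs at ITGB1 were higher in SNU216 both ways, as were 2 of 5 at ITGB4 and 2 of 4 at ITGA3. The pair at ITGA2, 3 of 5 at ITGB5, 1 at ITGB4 and 1 at ITGA3 were higher in MKN28 both ways. The other 6 pairs turned, 2 at ITGB4, 2 at ITGB5, 1 at ITGA3 and 1 at ITGAV. Pairs of 1 gene share a locus and are not independent.

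**Figure D4:**
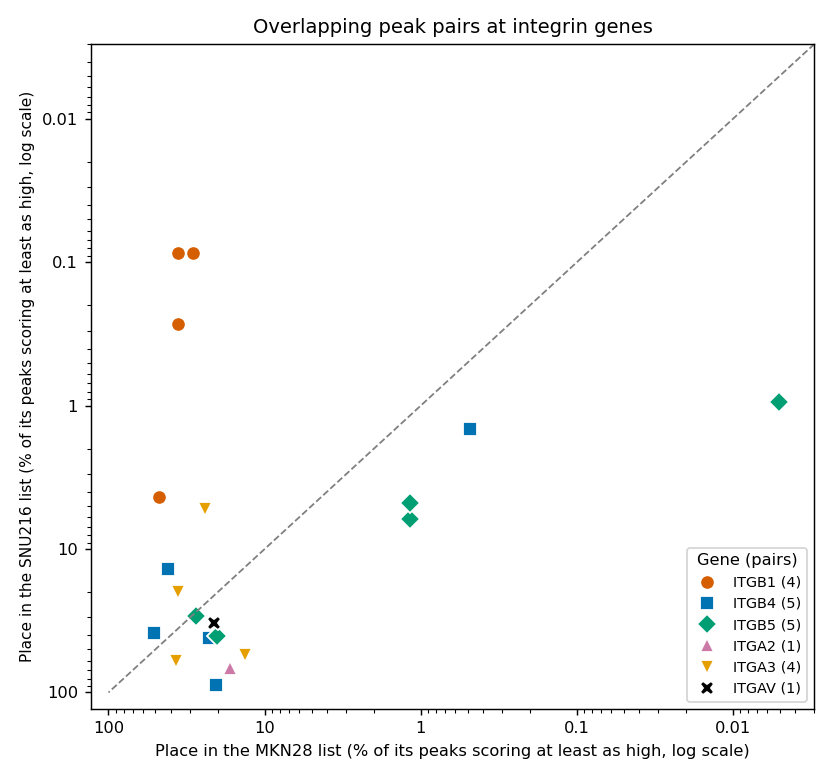
Place of each overlapping pair of integrin peaks in the MKN28 list (horizontal) and the SNU216 list (vertical), as the percentage of that list's peaks scoring at least as high, on log axes that run toward stronger peaks. Pairs above the dashed line are placed higher in SNU216 by this share, among them all 4 ITGB1 pairs, and the 5 ITGB5 pairs lie below it, 2 of which turn when ranks are compared.

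Most integrin peaks were more than 10 kb from the gene starts, as is most of a window of 100 kb to each side. Within 1 kb of a start lay 0 of 66 MKN28 peaks and 1 of 33 SNU216 peaks, and within 10 kb lay 11 and 11. Evenly spread peaks would also lie mostly away from the starts, and a lean toward the starts was not tested. Upstream of the start were 30 of the MKN28 and 19 of the SNU216 peaks. At ITGB4, 9 of 12 MKN28 and 5 of 6 SNU216 peaks were upstream, while at ITGB5 8 of 10 and 5 of 5 were downstream. At ITGB1 5 of 10 MKN28 peaks but 8 of 9 SNU216 peaks were upstream. The outermost counted peaks were an MKN28 peak 98.5 kb from ITGA6 (score 51.1) and an SNU216 peak 95.7 kb from ITGA3 (score 78.2). The nearest peaks left out were an MKN28 peak 100.5 kb from ITGB5 (score 74.5) and an SNU216 peak 113 kb from ITGB5 (score 599).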

How the data were processed

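Per the labels' protocols, cells were fixed with formaldehyde and chromatin was sonicated, and libraries went through 15 PCR cycles, selection near 250 bp and Illumina sequencing. Bowtie2 2.0.0, CASAVA 1.8, MACS and the build hg19 stand in the submitters' processing notes. Tool settings and the version of MACS were not given in the sources used here. For each TEAD4 library the authors deposited 1 peak list, with a position and a score per peak. The score's scale is not stated, so scores were ranked within a list. Here, positions were made 1-based, peaks were taken within 100 kb of the 7 hg19 gene starts, overlap meant at least 1 bp, and width was compared within 50 groups by score rank. Strands came from RefSeq, or from general knowledge for ITGB4 and ITGA3. Neighbour names are RefSeq's gene order on GRCh38.p14. Bands and chromosome lengths came from circlize 0.4.16. Python 3.11.15, numpy 2.4.6, pandas 2.3.3, scipy 1.17.1 and matplotlib 3.10.9 were used, and the code was tested on simulated peaks. Named peaks were the highest-scoring and the nearest to the start per gene and list, plus overlapping pairs; the 423-scoring ITGB4 peak was named after its value was seen. Members and lists were chosen with earlier results of these data known. No hg19 sequence or annotation was used, so peaks were not placed in exons or introns, and other integrin genes and motifs in peaks were not analysed here. The input libraries were not used as data of their own. Alternatives were windows of 50 and 200 kb, a score of at least 100, an MKN28 list of equal length, and other overlap rules.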

Additional observations from a re-analysis of the deposited data

How the results depend on the processing

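With a 50 kb window, 41 MKN28 peaks remained (median 6 per gene, and 3 in SNU216), and with 200 kb there were 115 (and 8 per gene in SNU216). With a score of at least 100, 41 MKN28 and 18 SNU216 peaks were left (median 6 per gene in MKN28), and the share of SNU216 peaks with an MKN28 partner was 77.8%. With MKN28 limited to its 11540 highest-scoring peaks, 18 MKN28 integrin peaks were left, of which 66.7% overlapped, so that the order of the lines reversed both for the counts and for the shares. These moves follow from the changed window, or from fewer and stronger peaks. Whole-list overlap shares are not given for the changed settings, so the shares here do not compare integrin peaks with all peaks. All other overlap shares stayed within the intervals of the main values, at 39.4 to 66.7% for SNU216 and 21.2 to 34.5% for MKN28, and the medians of score likewise. Settings without ITGB1 or without ITGA6, and the placement of pairs by rank, were added after the data were seen. Of 42 recomputed counts of single genes, 22 moved by more than 1.5 times. No paired analysis was possible because there was 1 library per line. Unknown depth limits every statement on a missing peak.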

Other observations

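Over 1 Mb to each side of the start, the ITGB1 neighbourhood held 34 MKN28 and 23 SNU216 peaks, a ratio of 1.48. The 14 of these SNU216 peaks outside the 200 kb window had a median width ratio of 1.197 for their score. A ratio of at least 1.4 was reached by 6 of these 14, beside 8.58% of all SNU216 peaks. The ITGA2 neighbourhood was the only one of the 7 with more SNU216 than MKN28 peaks, 13 and 11. Around ITGA6 there were 55 MKN28 and 17 SNU216 peaks, a ratio of 3.24, beside 3.42 for the whole lists, and 0 of the 17 lay in the 200 kb window of the gene. Around ITGAV there were 19 and 3, a ratio of 6.33.

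The integrin windows were covered by peaks over 2.59% of their length in MKN28, beside 0.735% of chromosomes 1 to 22 and X. The 9 SNU216 peaks at ITGB1 covered 10017 bp, and the 10 MKN28 peaks there covered 5313 bp.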
